A study of Mus musculus with 6 samples.

Results

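Expression of the enzymes that remove, place and feed acetyl groups on histones was examined in cardiomyocytes (CMs) of adult mice in which mitochondrial import of long-chain fatty acids was blocked by deletion of *Cpt1b*. The genes were selected by symbol: the class I histone deacetylases *Hdac1*, *Hdac2* and *Hdac3*, the class IIa deacetylases *Hdac4*, *Hdac5*, *Hdac7* and *Hdac9*, the histone acetyltransferases *Ep300* and *Crebbp*, and *Acly*, which makes acetyl-CoA. All 10 were among the 16448 genes of the deposited expression table, and all 10 passed the filter on low values that left 11364 genes for testing.

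RNA-seq of total RNA was available for 3 control samples (CtrlCre) and 3 mutant samples (Cpt1bcKO) of CMs, isolated from C57BL/6 mice aged 8 to 12 weeks after removal of the atria. Mutants carried the αMHC-Cre transgene and a floxed *Cpt1b* gene on both chromosomes, and controls carried the same transgene with wild-type *Cpt1b*, so an effect of Cre itself is shared by both groups. The αMHC promoter drives Cre in CMs from embryonic stages on, so Cre had acted in these CMs long before adulthood. The labels name no individual animals, and the study describes its replicates as separate mice.

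Histone deacetylases remove acetyl groups from lysines and thereby favour closed chromatin. Class I enzymes are active nuclear subunits of corepressor complexes. Class IIa enzymes have little catalytic activity of their own, bind MEF2 transcription factors, and leave the nucleus when CaM kinases or protein kinase D phosphorylate them; in the heart they are known as repressors of hypertrophic and fetal genes. EP300 and CBP, the product of *Crebbp*, write histone acetylation at enhancers, and ATP-citrate lyase supplies their acetyl-CoA from citrate exported by mitochondria.

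Values are counts normalized between samples by the authors and rounded to whole numbers. They summed to between 13393411 and 31722217 per sample, of which the mitochondrial rRNA *mt-Rnr2* took 61.8% to 80.8%, most in Cpt1bcKO samples 2 and 3. Leaving out mitochondrial and rRNA genes, the sums were 3146414 to 3551692. *Cpt1b* itself measured 1861, 893 and 1443 in CtrlCre samples 1 to 3 and 211, 353 and 285 in Cpt1bcKO samples 1 to 3 (log2 fold change −2.27, SE 0.267, adjusted P = 0.00338 in limma, and 0.0563 with a single prior variance for all genes). CM markers such as *Myh6* and *Ryr2* dominated every sample, with a sum over 7 markers of 147970 to 257855, against 1144 to 2418 over 6 endothelial markers and 31 to 56 over the leukocyte markers. All 6 endothelial markers had a positive log2 fold change, 1 with an unadjusted P below 0.05, and CtrlCre sample 1 had the lowest endothelial sum (1144, against 2153 and 2381 in the other controls) and smooth muscle sum (582, against 1548 and 1909). Fibroblast markers were low in all samples, but all 6 were higher in mutants by an unadjusted P below 0.05 and 2 of them, *Col1a1* and *Lum*, by an adjusted P (0.0143 for both in limma). The median log2 fold change of the 6 was 1.11, and their sums were 468 to 706 in CtrlCre and 995 to 1188 in Cpt1bcKO. All 7 CM markers had a negative log2 fold change, 2 of them with an unadjusted P below 0.05. In such bulk samples, fewer CMs and less RNA per CM cannot be told apart, and the part of these marker shifts in the results was not tested. *Xist* and Y-linked genes put sample 1 of each group apart as female (*Xist* 957 and 1080, against 23 to 78 in the other samples), so each group held 1 female and 2 male samples.

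*Hdac9* fell in the mutants and was the one gene of the 10 whose change passed an adjusted P of 0.05, where 1.57% of all genes tested did so in either direction, 0.906% lower and 0.66% higher. This call held in 2 of the 6 fits without 1 sample and in 6 of 8 other settings. By sign, 7 of the 10 genes were lower and 3 were higher. The median of their log2 fold changes was −0.11, against 0.00 over all genes tested. The 3 samples of each group did not overlap for *Hdac2*, *Hdac5* and *Hdac9*, all lower in mutants, where the groups did not overlap for 18.7% of all genes in either direction, 9.6% lower and 9.13% higher. An unadjusted P below 0.05 was reached by 2 of the 10, *Hdac2* and *Hdac9*, against 13.9% of all genes. That count was 1 without Cpt1bcKO sample 2 or CtrlCre sample 1 or 3, 3 without CtrlCre sample 2, and 1 without the variance trend.

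**Figure D1:**
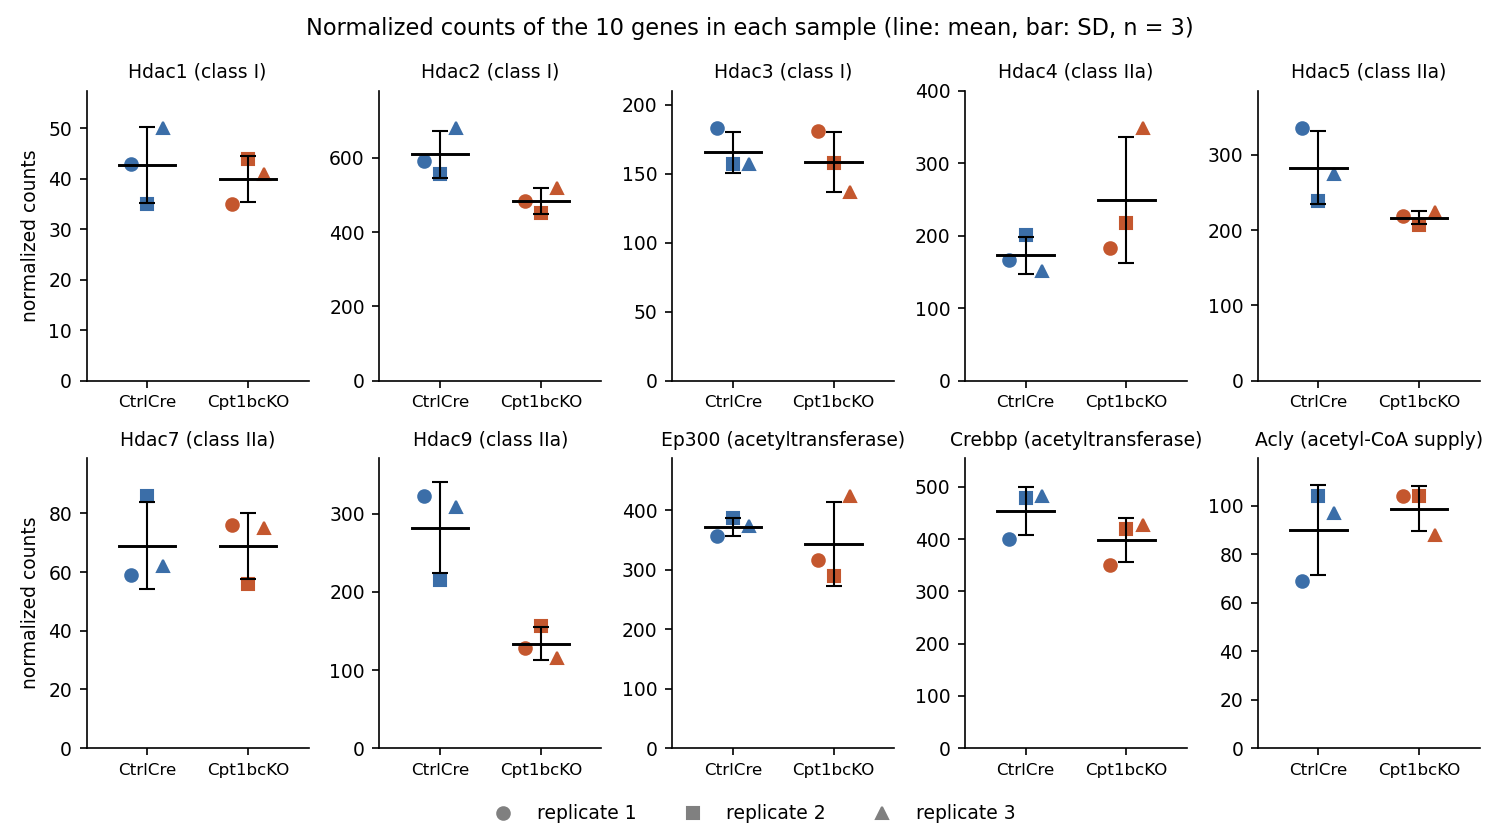
Normalized counts (y axis, from 0, with a scale of its own in each panel) of the 10 genes in the 3 CtrlCre and 3 Cpt1bcKO samples, 1 point per sample, with a line at the mean and a bar for the SD. The *Hdac9* points of the mutants, 116 to 157, all sit below those of the controls, 215 to 323, whereas the points of *Hdac1*, *Hdac3*, *Hdac7* and *Acly* intermingle.

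The DNA just before the transcription start is shown for the 3 genes whose groups did not overlap, since class IIa proteins act through MEF2 and both *Hdac9* and *Hdac5* carry letters of a MEF2 element there. The 250 bases upstream of each start are from RefSeq (GRCm38.p6), printed 5′ to 3′ on the strand of the gene, with matches to CTATTTTT, the core of a MEF2 element, in capitals (both strands were searched). The *Hdac9* window lies at chr12:34528890-34529139, minus strand, that of *Hdac5* at chr11:102230173-102230422, minus strand, and that of *Hdac2* at chr10:36974294-36974543, plus strand.
Hdac9: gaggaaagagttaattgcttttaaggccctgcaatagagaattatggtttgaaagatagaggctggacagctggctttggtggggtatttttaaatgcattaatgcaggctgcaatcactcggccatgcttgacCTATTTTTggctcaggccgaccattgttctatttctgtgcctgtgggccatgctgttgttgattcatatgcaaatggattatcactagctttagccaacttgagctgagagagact
Hdac5: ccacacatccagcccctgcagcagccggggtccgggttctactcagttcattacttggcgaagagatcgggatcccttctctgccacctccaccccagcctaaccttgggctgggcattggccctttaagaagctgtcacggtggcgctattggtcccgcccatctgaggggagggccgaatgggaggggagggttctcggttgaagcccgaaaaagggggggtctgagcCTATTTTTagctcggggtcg
Hdac2: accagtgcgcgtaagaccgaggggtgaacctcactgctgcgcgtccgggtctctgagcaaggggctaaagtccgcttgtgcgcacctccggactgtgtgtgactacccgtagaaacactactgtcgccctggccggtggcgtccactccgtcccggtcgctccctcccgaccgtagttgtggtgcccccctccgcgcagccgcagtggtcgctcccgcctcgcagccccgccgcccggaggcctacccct

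The *Hdac9* window was poor in G and C, with 43.6% of its bases (percentile 20.1 among 32851 windows of 27025 genes, median 52.4%) and 2 CpG sites (median 6), and the match stood 116 to 109 bases upstream of the start. The *Hdac5* window held 60.8% G and C and 12 CpG sites, with the match 20 to 13 bases upstream. The *Hdac2* window was a CpG-rich promoter with 68.8% G and C and 27 CpG sites, and the motif does not occur in its letters. Of all windows, 1.39% hold the motif on either strand, and these are matches of letters and not measured binding sites. RefSeq places a second *Hdac9* start at base 34917095, outside the gene span of the expression table, with 44.4% G and C and no CpG site in its window. Among the other genes with a window, *Hdac4*, *Ep300*, *Acly* and *Crebbp* had 65.2% to 84.0% G and C, and the 4 windows of *Hdac7* had 56.4% to 74.0%. The motif does not occur in the letters of these windows or of the second *Hdac9* window.

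Among class IIa genes, *Hdac9* (ENSMUSG00000004698, chr12:34047580-34528874, minus strand, mm10) encodes a MEF2-binding repressor of cardiac hypertrophy, of which a splice form without the deacetylase domain is known in muscle. Its normalized counts were 323, 215 and 309 in CtrlCre samples 1, 2 and 3, and 128, 157 and 116 in the mutants. Every mutant sample was below every control sample, and the lowest control (sample 2) was still above the highest mutant (sample 2). The mean went from 282 ± 58.7 (SD, n = 3) to 134 ± 21.1 (SD, n = 3), a log2 fold change of −1.06 (SE 0.204, 95% interval −1.52 to −0.61) with an adjusted P of 0.0320 in limma, 129th of all genes tested by P. The difference had the same sign in the female samples (−1.33 on the log2 scale, 1 against 1) and in the male samples (−0.93, 2 against 2). Of the other 9 genes, *Hdac1* (−0.29 in females and 0.02 in males), *Hdac7* (0.36 and −0.17) and *Acly* (0.58 and −0.07) had opposite signs in the sexes, and 6 had the same sign. Its gene is one of the longest, spanning 481.3 kb, a span reached by 94 of the 11364 genes tested, and the values do not separate splice forms.

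The size of the *Hdac9* change moved little with the processing, but its adjusted P did not stay below 0.05 everywhere. Over 8 other settings with all samples, the log2 fold change ran from −1.08 to −0.95. The adjusted P in limma ranged there from 0.0121 to 0.129, and the call was lost with a single prior variance (0.129) and with scaling to the sum without mitochondrial and rRNA genes (0.0539). Over the 6 fits without 1 sample it ran from −1.25 to −0.95. There the adjusted P was 0.0365 without Cpt1bcKO sample 1 and 0.0381 without CtrlCre sample 2, but 0.0813 without Cpt1bcKO sample 2, 0.0879 without Cpt1bcKO sample 3, 0.112 without CtrlCre sample 1 and 0.138 without CtrlCre sample 3. Unadjusted P values in these 6 fits were 0.000192 to 0.00273. Every fit without CtrlCre sample 1 or Cpt1bcKO sample 1, here and below, compared an all-male group with one that held a female sample. The model had no term for sex, and its part in these fits was not tested.

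**Figure D2:**
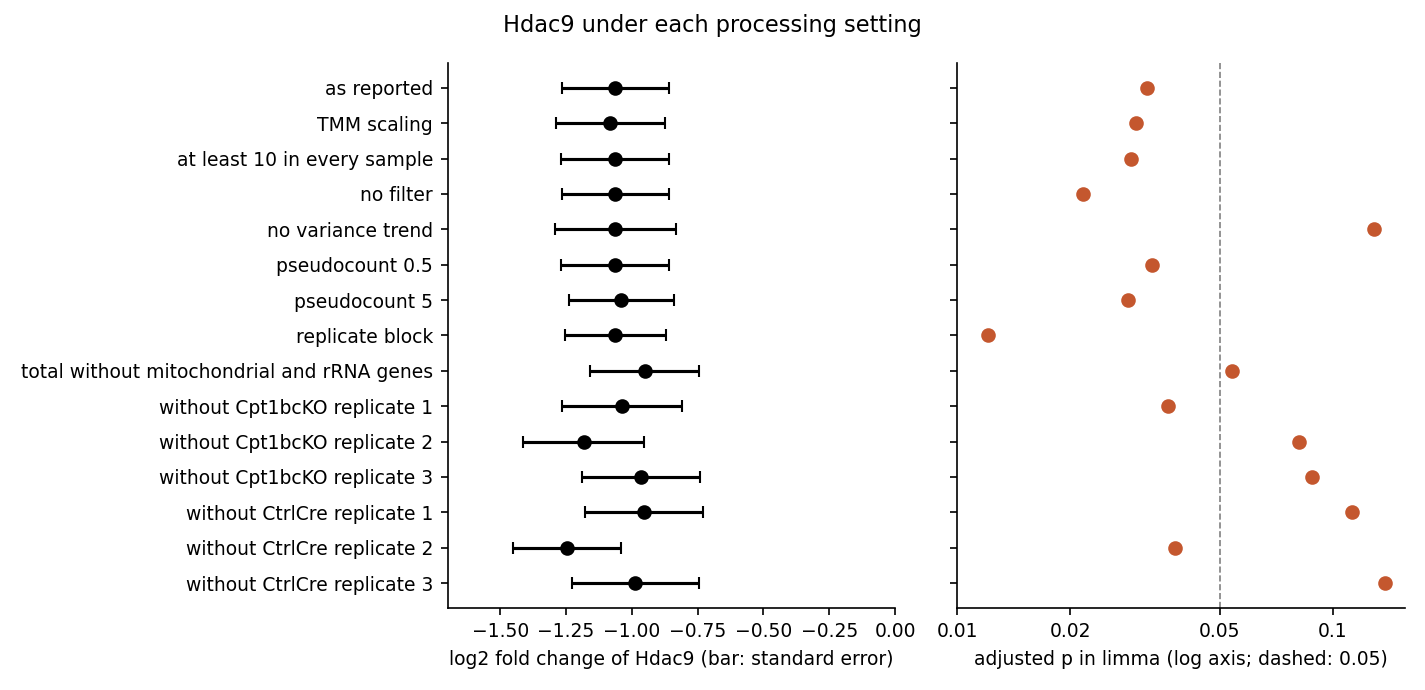
Log2 fold change of *Hdac9* with its SE (left) and adjusted P in limma on a log axis (right, dashed line at 0.05) under each processing setting, 1 row per setting. All estimates sit between −1.25 and −0.95, while 6 of the 14 alternative settings put the adjusted P to the right of the line.

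*Hdac5* (ENSMUSG00000008855, chr11:102194432-102230166, minus strand) is the class IIa repressor best known as a target of CaM kinase and protein kinase D in the heart. It measured 335, 239 and 275 in CtrlCre and 218, 207 and 224 in Cpt1bcKO samples 1 to 3. All mutants lay below all controls and close together, and CtrlCre sample 1 was the highest. The means were 283 ± 48.5 and 216 ± 8.62 (SD, n = 3 each), with a log2 fold change of −0.37 (95% interval −0.75 to 0.00) that did not pass the test, at an adjusted P of 0.361 in limma. Without CtrlCre sample 1 it was −0.24 (adjusted P = 0.669), and without CtrlCre sample 2 it was −0.49 (adjusted P = 0.335 in limma).

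*Hdac4* (ENSMUSG00000026313, chr1:91928779-92180341, minus strand), which binds the same MEF2 factors and responds to CaMKII, had the opposite sign. Its values were 167, 201 and 151 in CtrlCre and 183, 218 and 348 in Cpt1bcKO. The groups overlapped, and the mutant mean of 250 ± 86.9 against 173 ± 25.5 (SD, n = 3 each) leaned on Cpt1bcKO sample 3. The log2 fold change of 0.48 (95% interval −0.05 to 1.01, adjusted P = 0.404 in limma) became 0.22 without that sample (adjusted P = 0.749). Without Cpt1bcKO sample 1 it became 0.68 (adjusted P = 0.135 in limma). Cpt1bcKO sample 3 was also the highest for *Gm26720* and *Gm37048*, listed on the opposite strand within the *Hdac4* span, with 44 and 39 against 4 to 15 in controls. The strand setting of the read counting is not given in the sources used here, and reads on several genes were left out. If strand was not used, reads on any exons shared with *Hdac4* were lost, by an unknown amount. *Gm37036* overlaps *Hdac4* on the same strand, with 3, 5 and 1 in CtrlCre and 5, 14 and 10 in Cpt1bcKO. Reads on any exons it shares with *Hdac4* were left out under either setting.

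*Hdac7* (ENSMUSG00000022475, chr15:97792664-97844502, minus strand), the class IIa member known chiefly from endothelium and thymocytes, was level between the groups. It measured 59, 86 and 62 in CtrlCre and 76, 56 and 75 in Cpt1bcKO, with intermingled samples and a mean of 69.0 in both groups (SD 14.8 and 11.3, n = 3 each). The log2 fold change was 0.01, with a 95% interval of −0.52 to 0.53 that leaves room for a change in either direction. *Slc48a1* overlaps it on the opposite strand at 89 to 142 normalized counts, and reads on any shared exons may likewise have been left out.

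Class IIa genes were also set against each other within each sample, as ratios of normalized counts not divided by exon length. Such ratios can be compared between samples, but do not give the relative levels of the genes. The ratio of *Hdac9* to *Hdac4* was 1.93, 1.07 and 2.05 in CtrlCre and 0.699, 0.720 and 0.333 in Cpt1bcKO, without overlap. The ratio of *Hdac9* to *Hdac5* was 0.964, 0.900 and 1.12 in controls and 0.587, 0.759 and 0.518 in mutants, again without overlap. The ratio to *Hdac7* overlapped, since CtrlCre sample 2 had 2.50 and Cpt1bcKO sample 2 had 2.80. With 3 samples against 3, an exact two-sided permutation test of a single ratio cannot give less than 0.1, and the ratios are given as values.

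Apart from such ratios, levels of different genes were compared per kilobase of merged exons. On that scale, the 4 class IIa genes summed to 79.5, 67.3 and 71.1 normalized counts per kilobase in CtrlCre and 56.4, 56.4 and 66.5 in Cpt1bcKO. The GENCODE models of *Hdac9* and *Hdac4* used for their lengths, and likewise those of *Hdac3* and *Ep300*, reach beyond the gene spans of the expression table, which can understate their levels per kilobase by the same factor in every sample. *Hdac5* was the largest part in every sample, at 38.3% to 48.0% of the sum. *Hdac9* made up 27.7%, 21.8% and 29.6% in controls and 15.5%, 19.0% and 11.9% in mutants. *Hdac4* made up 13.3%, 18.9% and 13.4% in controls and 20.5%, 24.5% and 33.1% in mutants. Shares of a sum are not independent, so a lower *Hdac9* part raises the share of *Hdac4*, whose own values overlapped between the groups.

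**Figure D3:**
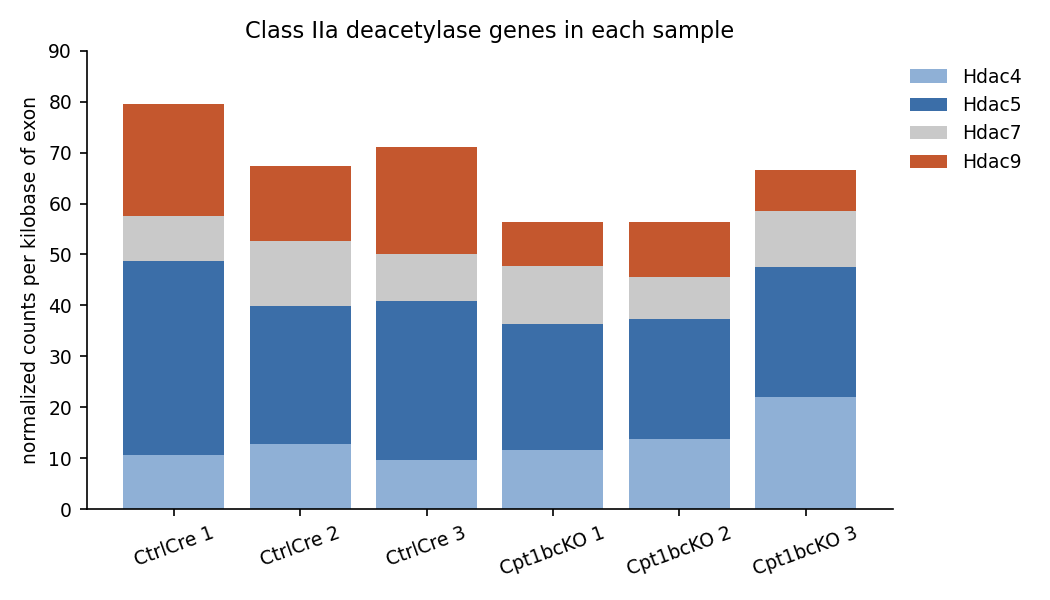
Normalized counts per kilobase of exon (y axis, from 0) of the 4 class IIa deacetylase genes, stacked in 1 bar per sample. The *Hdac9* segment is 21.8% to 29.6% of the bar in CtrlCre and 11.9% to 19.0% in Cpt1bcKO, and *Hdac5* is the largest segment throughout.

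Among class I genes, *Hdac2* (ENSMUSG00000019777, chr10:36974544-37001889, plus strand), a catalytic subunit of the NuRD, SIN3 and CoREST complexes, was the most abundant of the 10 genes. It measured 591, 556 and 679 in CtrlCre and 483, 450 and 518 in Cpt1bcKO. The groups did not overlap, with CtrlCre sample 3 the highest and Cpt1bcKO sample 2 the lowest. The means were 609 ± 63.4 and 484 ± 34.0 (SD, n = 3 each), and the log2 fold change of −0.33 (95% interval −0.65 to −0.01, unadjusted P = 0.0449) did not pass after adjustment (adjusted P = 0.348 in limma). Unadjusted P values ran from 0.0430 to 0.174 in the 6 fits without 1 sample. The log2 difference was −0.29 in the female samples and −0.35 in the males.

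*Hdac1* (ENSMUSG00000028800, chr4:129516104-129542713, minus strand), the close relative that shares these complexes with *Hdac2*, was far lower, with 43, 35 and 50 in CtrlCre and 35, 44 and 41 in Cpt1bcKO. The samples overlapped and the log2 fold change was −0.08 (95% interval −0.64 to 0.47). A processed copy of *Hdac1* on chromosome 17, *Gm10093*, was listed at 2 to 6, and since reads matching several regions were excluded, the level of *Hdac1* may be understated by an unknown amount. *Hdac3* (ENSMUSG00000024454, chr18:37936972-37954988, minus strand), the catalytic subunit of the NCoR and SMRT corepressors and a regulator of cardiac lipid metabolism, measured 183, 157 and 157 in CtrlCre and 181, 158 and 137 in Cpt1bcKO. Its log2 fold change was −0.07 (95% interval −0.46 to 0.32), with overlapping groups. *Hdac2* was 69.6% to 74.0% of the class I sum per kilobase in controls and 66.0% to 71.7% in mutants, ranges that overlap.

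Neither acetyltransferase passed the test. *Ep300* (ENSMUSG00000055024, chr15:81585397-81652077, plus strand) was 357, 387 and 373 in CtrlCre and 316, 290 and 424 in Cpt1bcKO, with Cpt1bcKO sample 3 above all controls and the other two mutants below them. Its means were 372 ± 15.0 and 343 ± 71.1 (SD, n = 3 each), and the log2 fold change was −0.14 (95% interval −0.52 to 0.24, adjusted P = 0.777 in limma). It moved to −0.02 without Cpt1bcKO sample 2 and to −0.30 without Cpt1bcKO sample 3. *Crebbp* (ENSMUSG00000022521, chr16:4081328-4213997, minus strand), its paralogue with largely the same substrates, was 400, 479 and 483 in CtrlCre and 351, 419 and 427 in Cpt1bcKO. The log2 fold change was −0.19 (95% interval −0.53 to 0.16, adjusted P = 0.642 in limma), and the overlap came from CtrlCre sample 1, the lowest control. Without Cpt1bcKO sample 1 its log2 fold change was −0.10, and without CtrlCre sample 1 it was −0.27. *Gm37186* overlaps *Crebbp* on the same strand, with 11, 14 and 13 in CtrlCre and 16, 28 and 30 in Cpt1bcKO. Reads on any exons they share were left out, by an unknown amount. The ratio of *Crebbp* to *Ep300* within a sample, not divided by exon length, was 1.12 to 1.29 in controls and 1.01 to 1.44 in mutants.

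*Acly* (ENSMUSG00000020917, chr11:100476353-100528000, minus strand) was 69, 104 and 97 in CtrlCre and 104, 104 and 88 in Cpt1bcKO, so that mutants lay within the control range. Its log2 fold change was 0.15 (95% interval −0.33 to 0.62, adjusted P = 0.805 in limma). The intervals of *Hdac1*, *Hdac3*, *Hdac7*, *Ep300*, *Crebbp* and *Acly* all include 0 and none is narrow enough to show equal levels.

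**Figure D4:**
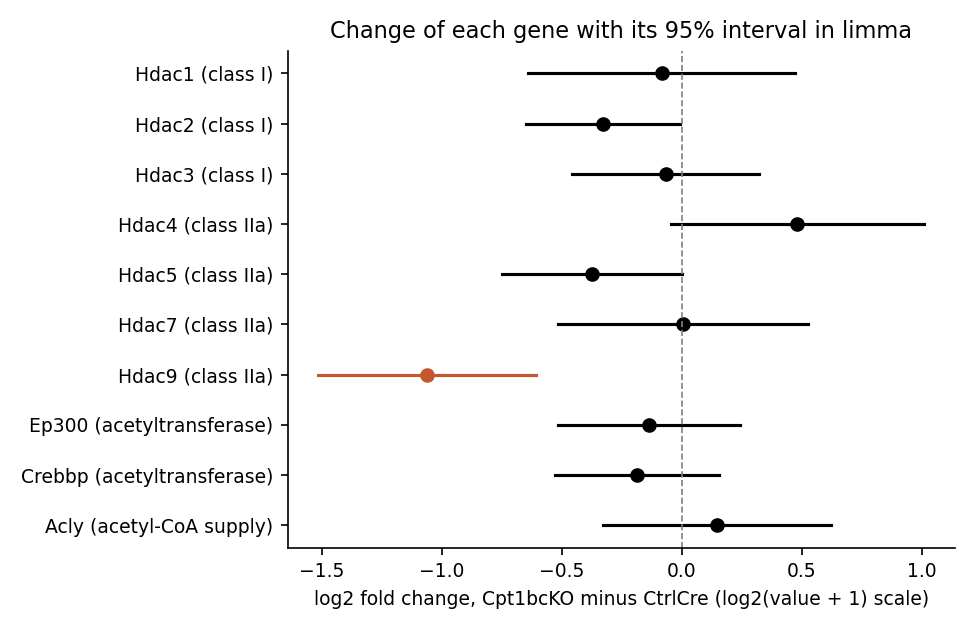
Log2 fold change (x axis, Cpt1bcKO minus CtrlCre on the log2(value + 1) scale) of each of the 10 genes, with its 95% interval in limma and a dashed line at 0. *Hdac9* stands apart at −1.06, the interval of *Hdac2* ends at −0.01, and the other 8 intervals include 0.

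Per kilobase of exon, the order of levels in CtrlCre was *Hdac2* with a mean of 136 normalized counts per kilobase, *Hdac3* with 40.9, *Crebbp* with 33.5, *Hdac5* with 32.2, *Ep300* with 26.1, *Hdac9* with 19.3, *Acly* with 17.0, *Hdac1* with 12.4, *Hdac4* with 10.9 and *Hdac7* with 10.2. Control samples of neighbours overlapped for *Crebbp* and *Hdac5*, for *Hdac9* and *Acly*, and from *Acly* down to *Hdac7*. In Cpt1bcKO the upper part kept its order by mean, from *Hdac2* at 108 to *Ep300* at 24.1. The Cpt1bcKO samples of *Hdac5* (23.6 to 25.5) lay within the range of *Ep300* (20.3 to 29.7). *Hdac9* was last there, at 9.11 (7.91 to 10.7 over the samples), next to *Hdac7* at 10.2 and *Hdac1* at 11.6, whose samples overlapped with it.

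The genes whose profile over the 6 samples was most like that of *Hdac9*, by Pearson's r of log2 values among 6788 genes whose mean reached 50, were *Ubfd1* (r = 0.997), *Papd7* (r = 0.994) and *Epn3* (r = 0.987). *Ubfd1* measured 148, 117 and 144 in CtrlCre and 75, 90 and 70 in Cpt1bcKO. *Papd7* was 86 to 100 in controls and 60 to 69 in mutants, and *Epn3* 175 to 227 and 101 to 124. With 6 samples in 2 groups such values describe a shared split between groups and a shared order within them, and the highest values among so many genes are high by selection.

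The remaining genes of these pathways were examined as lists, given by counts beside the 6.66% of all genes tested with an unadjusted P below 0.05 in the higher direction and 7.22% in the lower (757 and 821 genes). With scaling to the sum without mitochondrial and rRNA genes these became 1221 and 505 genes, and the lower counts given below became 0 for the acetyltransferases, the readers and the acetyl-CoA genes and 2 for the corepressors. None of the deacetylase, corepressor, acetyltransferase, coactivator, reader, acetyl-CoA or partner lists held a gene with an adjusted P below 0.05 in limma. Of the 4 other deacetylases, 0 had an unadjusted P below 0.05, and 2 higher ones did without Cpt1bcKO sample 1. The tubulin deacetylase *Hdac6*, chosen for mention after its values were seen, was 35, 39 and 34 in CtrlCre and 41, 77 and 49 in Cpt1bcKO, without overlap (log2 fold change 0.57, adjusted P = 0.402 in limma).

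Of 40 tested subunits of deacetylase corepressor complexes, 26 were lower and 14 higher by sign, with 3 lower and 0 higher at an unadjusted P below 0.05 and a median log2 fold change of −0.07. The SIN3 subunit gene *Sap30l* measured 76, 61 and 63 in CtrlCre and 48, 35 and 36 in Cpt1bcKO (log2 fold change −0.74, adjusted P = 0.184 in limma). *Mier3*, which encodes a scaffold for HDAC1 and HDAC2, measured 138, 101 and 135 against 90, 76 and 80 (log2 fold change −0.59, adjusted P = 0.210). Both were without overlap between the groups. Without Cpt1bcKO sample 1, 7 corepressor genes were lower and 1 higher at an unadjusted P below 0.05.

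Of 37 other acetyltransferases and their subunits, 25 were lower and 12 higher by sign, with 1 lower and 2 higher at an unadjusted P below 0.05 and overlapping groups in all 3. Without Cpt1bcKO sample 1, 4 were lower at that P, and without Cpt1bcKO sample 2 or CtrlCre sample 3, 0 were lower and 0 higher. The higher count was also 0 without Cpt1bcKO sample 3 and 1 without CtrlCre sample 1. Among 26 readers of acetyl-lysine, 15 were lower and 11 higher, with 2 and 1 at that P. The lower count was 1 without Cpt1bcKO sample 2 or 3 or CtrlCre sample 1 or 2, and the higher count 2 without Cpt1bcKO sample 1. *Baz1a*, a bromodomain subunit of ISWI remodellers, was 72, 92 and 66 in CtrlCre and 102, 140 and 150 in Cpt1bcKO (log2 fold change 0.76, adjusted P = 0.153 in limma). *Cecr2*, another ISWI-associated bromodomain gene, was 199, 216 and 151 against 133, 143 and 114 (−0.52, adjusted P = 0.250), and *Mllt1*, a YEATS-domain reader, was 86, 86 and 114 against 85, 63 and 50 (−0.54, adjusted P = 0.355). Among 13 tested coactivators and inhibitors linked to EP300 and CBP, 10 were lower and 3 higher by sign, with 1 lower and 2 higher at an unadjusted P below 0.05. The lower one, *Cited2*, an inhibitor that competes for CBP and EP300, was named after its values were seen and measured 115, 100 and 59 in CtrlCre and 61, 37 and 45 in Cpt1bcKO, with overlap (log2 fold change −0.90, adjusted P = 0.198 in limma). The CREB coactivator *Crtc1*, without overlap, was 26, 25 and 36 in controls and 39, 46 and 48 in mutants (log2 fold change 0.61, adjusted P = 0.342 in limma). The higher count was 0 without Cpt1bcKO sample 2 or 3 or CtrlCre sample 2 and 1 without CtrlCre sample 1 or 3, and the lower count was 3 without Cpt1bcKO sample 1, 2 without CtrlCre sample 2 and 0 without Cpt1bcKO sample 2.

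Around *Acly*, 15 genes of acetyl-CoA supply and use were tested, of which 8 were higher and 7 lower by sign and 2 higher and 1 lower at an unadjusted P below 0.05. *Acss1*, the mitochondrial acetyl-CoA synthetase, measured 1351, 1504 and 1442 in CtrlCre and 1176, 1231 and 982 in Cpt1bcKO (log2 fold change −0.35, adjusted P = 0.295 in limma). *Acacb*, which turns acetyl-CoA into the malonyl-CoA that inhibits CPT1, measured 1555, 1626 and 1285 against 1676, 2095 and 2120 (log2 fold change 0.40, adjusted P = 0.277). Both were without overlap between the groups. The higher count was 0 without Cpt1bcKO sample 2 or CtrlCre sample 3 and 1 without Cpt1bcKO sample 1 or CtrlCre sample 2, and the lower count was 2 without Cpt1bcKO sample 1 and 0 without Cpt1bcKO sample 3 or CtrlCre sample 2 or 3.

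Of 33 tested partners and export kinases of class IIa deacetylases, 10 were without overlap between the groups (18.7% of all genes tested were). In the lists above, this held for 1 of 4 other deacetylases, 7 of 40 corepressor subunits and 3 of 37 other acetyltransferases and subunits. It also held for 5 of 26 readers, 3 of 15 acetyl-CoA genes and 1 of 13 coactivators and inhibitors. By sign 24 were lower and 9 higher, with 7 lower and 1 higher at an unadjusted P below 0.05 and a median log2 fold change of −0.13. *Myocd*, the cardiac and smooth muscle coactivator that binds SRF and MEF2C, was 444, 459 and 490 in CtrlCre and 248, 342 and 289 in Cpt1bcKO (log2 fold change −0.67, adjusted P = 0.0737 in limma). *Camk2b*, an export kinase, was 40, 32 and 38 against 18, 16 and 26 (−0.87, adjusted P = 0.223), and the partner genes *Mef2a* (−0.47, adjusted P = 0.205) and *Mef2c* (−0.37, adjusted P = 0.254), named after their values were seen, were also among the 7. The related *Mef2d* had the opposite sign, with overlapping groups (log2 fold change 0.27, adjusted P = 0.471 in limma). *Sik1*, a salt-inducible kinase that phosphorylates class IIa deacetylases, was 116, 88 and 145 in CtrlCre and 323, 285 and 167 in Cpt1bcKO (log2 fold change 1.12, adjusted P = 0.0779 in limma). In the 6 fits without 1 sample, its log2 fold change ran from 0.93 to 1.41 and its adjusted P from 0.0245 to 0.333, below 0.05 in 1 of them, the fit without its lowest mutant, Cpt1bcKO sample 3. The count of 7 depended on single samples, being 2 without Cpt1bcKO sample 2, 3 without CtrlCre sample 2, and 4 without CtrlCre sample 1 or sample 3, and it was 3 under scaling to the sum without mitochondrial and rRNA genes. CM markers moved in the same direction as the partner genes, and their part in these values was not tested.

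Of 9 fetal and skeletal muscle genes known to be under deacetylase control, 6 were tested and all 6 were higher by sign, 3 at an unadjusted and 2 at an adjusted P below 0.05. Of all genes tested, 6.66% and 0.66% were higher at these limits. The groups did not overlap for 2 of the 6. The list was written with earlier results known, and the paper reports *Nppa* and *Acta1* as raised in these mutants, so its signs are given as values only. The count of 3 ran from 2 to 4 in the fits without 1 sample and was 5 with scaling to the sum without mitochondrial and rRNA genes. Skeletal α-actin, *Acta1*, rose from 773, 1177 and 814 in CtrlCre to 15185, 10270 and 7005 in Cpt1bcKO (log2 fold change 3.51, adjusted P = 0.000221 in limma). The natriuretic peptide gene *Nppa* rose from 177, 93 and 144 to 683, 452 and 384 (log2 fold change 1.87, adjusted P = 0.00917). The adjusted P of *Nppa* in limma was 0.0527 without Cpt1bcKO sample 2 and 0.0772 with a single prior variance. Summed atrial markers, measured apart from *Nppa*, were 65 to 236 in controls and 117 to 154 in mutants.

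**Figure D5:**
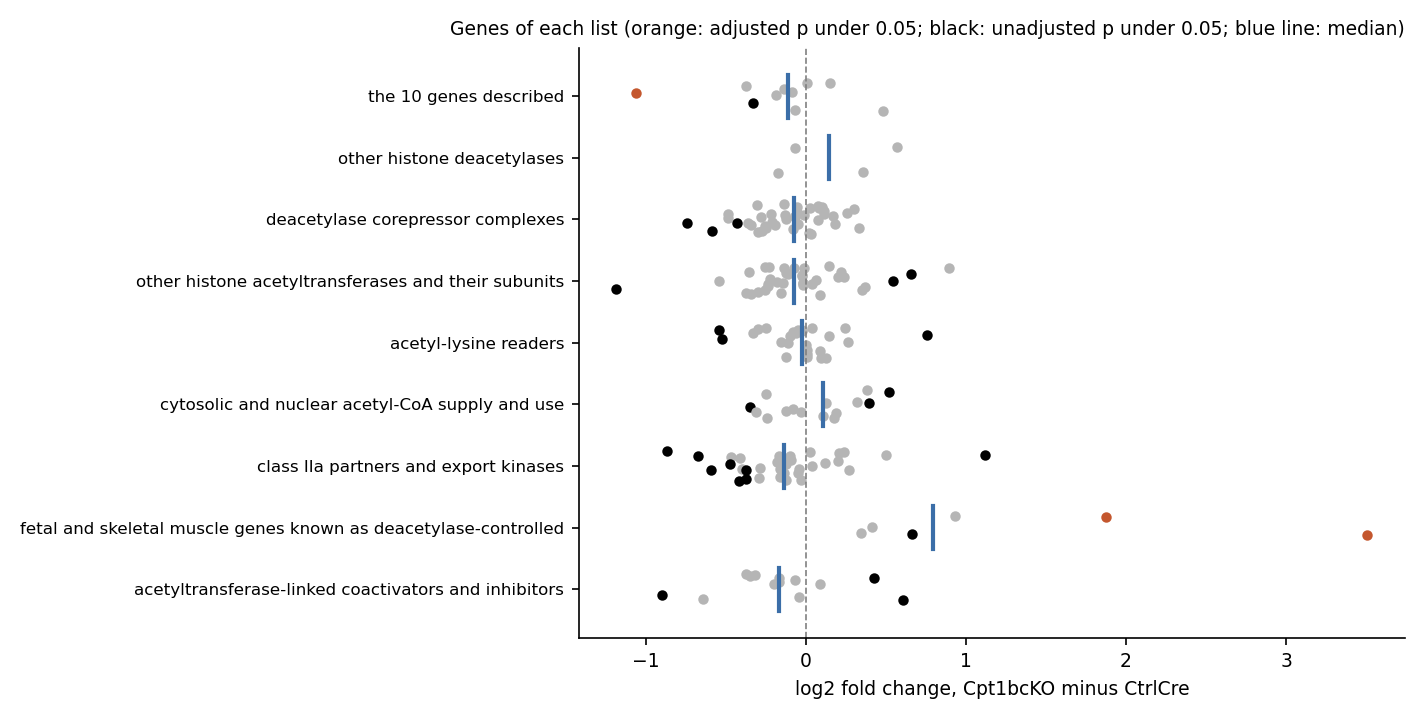
Log2 fold change (x axis, Cpt1bcKO minus CtrlCre) of every tested gene of the 8 pathway lists, 1 point per gene, with a blue line at the median of each list, black points for an unadjusted P and orange points for an adjusted P below 0.05. Medians sit between −0.17 and 0.15 except for the fetal and skeletal muscle genes at 0.80. The orange points are *Hdac9* in the top row and *Acta1* and *Nppa* among the fetal and skeletal muscle genes.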

How the data were processed

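RNA-seq was performed on 3 CtrlCre and 3 Cpt1bcKO samples with a stranded total RNA kit. Per the labels and the submitters' processing notes, reads were checked with FastQC 0.11.8, trimmed with Trimmomatic 0.36, aligned with STAR 2.5.4b to mm10 (GRCm38.p5) and counted with featureCounts 1.6.0, leaving out reads on several genes or regions, and normalized with DESeq2 1.14.1. The annotation release and the strand setting are not given in the sources used here. The deposited sample values are a score: counts that the authors normalized between samples and rounded, so raw counts and their sampling error cannot be recovered. The spacing of low values puts 1 read of Cpt1bcKO sample 3 at 1.29. The deposited log2 fold changes and p-values, with group means, are the authors' own comparison and were not used.

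Values were transformed to log2(value + 1), which understates changes of low genes. Genes with at least 10 in at least 3 samples were tested with limma 3.58.1 (R 4.3.3; lmFit and eBayes with a trend), without covariates, and P values were adjusted by the Benjamini–Hochberg method over the 11364 genes. Alternatives were TMM scaling (trimmed mean of M values), scaling to the sum without mitochondrial and rRNA genes, other filters, pseudocounts of 0.5 and 5, no variance trend, a replicate block and leaving out each sample. The steps were tested on simulated data. Exon lengths and overlapping genes came from GENCODE vM21 (6 of 10 genes with the same start and end), promoters from RefSeq; no promoter of *Hdac1* or *Hdac3* is shown. Python 3.11.15 was used for tables and figures (numpy 2.4.6, pandas 2.3.3, matplotlib 3.10.9).

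The 10 genes and the gene lists were chosen with earlier results of these data known. Besides the 10 genes and *Cpt1b*, the text names from each list genes with an adjusted P below 0.05, and up to 2 rises and 2 falls with the largest log2 fold change among genes with an unadjusted P below 0.05 and groups without overlap, and the 3 genes most like *Hdac9*.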

Additional observations from a re-analysis of the deposited data

How the results depend on the processing

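Signs of the log2 fold changes held under all 14 alternatives for *Hdac2*, *Hdac4*, *Hdac5*, *Hdac9*, *Ep300* and *Crebbp*. With scaling to the sum without mitochondrial and rRNA genes, which shifts the median of all genes to 0.11, *Hdac1* became 0.027 and *Hdac3* 0.044, and with TMM scaling *Hdac7* became −0.012. Without 1 sample, *Hdac1* ranged from −0.215 to 0.037, *Hdac3* from −0.166 to 0.033, *Hdac7* from −0.094 to 0.174 and *Acly* from −0.030 to 0.263. The number of the 10 genes with an adjusted P below 0.05 in limma, 1 as reported, was 0 without the variance trend and 0 under that sum scaling, and ran from 0 to 1 without 1 sample. Over the whole table that number was 178 as reported, 41 without the trend and 42 to 329 without 1 sample. Genes with an unadjusted P below 0.05 ran from 1007 to 2262 without 1 sample against 1578, and under the sum scaling 1221 were higher and 505 lower, against 757 and 821. In the 8 pathway lists the genes at that P were 26 as reported, 16 without the trend and 11 to 40 without 1 sample. The causes of these shifts were not tested.

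The samples share replicate numbers in their titles, but deviations from the group means correlated across genes at 0.376, 0.255 and 0.0684 between same-numbered samples, so the numbers were not taken to pair the samples. A replicate block gave 603 genes with an adjusted P below 0.05 over the table and 44 list genes at an unadjusted P below 0.05. Of the 10 genes, *Hdac9* had an adjusted P of 0.0121 in limma with the block, and *Hdac2*, *Hdac4* and *Hdac5* had 0.118, 0.224 and 0.159, while *Myocd* and *Sik1* passed with 0.0157 and 0.0322.

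Sampling error of the reads behind low values, such as those of *Hdac1*, *Hdac7* and *Acly*, could not be computed from rounded normalized counts.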
